A study of Mus musculus with 12 samples.

Results

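The 44 genes described here encode the kinetochore, the protein assembly that joins a chromosome's centromere to spindle microtubules, together with centromere loading factors and the spindle checkpoint. They were picked out of the table by symbol, from a list drawn up with earlier results of these data known, and all 44 were found among the 24770 genes of the table and passed the filter that left 12311 genes for testing (at least 1 FPKM in at least 3 libraries). FPKM is a level scaled by transcript length and by the mapped fragments of a library. RNA was measured in GC-2 cells, a mouse line labelled as type B spermatogonia with genotype WT, in 12 libraries, 3 in each of 4 groups. Cells received MLN4924 at 1 µM, an inhibitor of the NEDD8-activating enzyme, or its solvent DMSO, and spent 24 h in hypoxia at 1% O2 or in normoxia. The groups were therefore MLN4924 hypoxia, MLN4924 normoxia, DMSO hypoxia and DMSO normoxia, all of them the same line and with no other allele or agent named. Replicates are described by the submitters as biological. The number in the cell type label climbs by sample, between GC-2 and GC-13, and it was read as GC-2, as in the titles, with no test of identity.

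Centromeres are marked by the histone H3 variant CENP-A, which recruits an inner layer of CENP proteins, the constitutive centromere-associated network. This inner layer carries the outer KNL1, MIS12 and NDC80 complexes, which bind microtubules and the checkpoint kinases. The checkpoint delays anaphase until kinetochores are attached, while the chromosomal passenger complex with Aurora B corrects wrong attachments and shugoshins protect cohesion at the centromere. Transcripts of many of these genes rise in cells approaching mitosis. In bulk RNA, fewer cells in that phase and less RNA per cell cannot be told apart.

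Several of these promoters hold the CHR, a cell cycle element (searched as TTTGAA or TTCGAA) bound by the MuvB complexes, and CCAAT boxes, and both were searched on both strands. The promoter table, from RefSeq on build GRCm38.p6, covers 250 bases before to 50 after each start site and had 43 windows for 38 of the 44 genes; it had no entry for Spc24, Nsl1, Zwilch, Ska1, Incenp and Aurkb. The FPKM values rest on build mm39, and no signal was read by coordinate. The windows below belong to 4 of the 5 genes whose response to hypoxia differed between MLN4924 and DMSO, printed 5′ to 3′ along the gene's strand with CHR and CCAAT matches in capitals. In Cdca8 a CHR and a CCAAT match overlap. The windows are chr2:127831810-127832109 for Bub1 (minus strand), chr4:124936868-124937167 for Cdca8 (minus strand), chr5:30666636-30666935 for Cenpa (plus strand) and chr17:71526808-71527107 for Ndc80 (minus strand).
Bub1: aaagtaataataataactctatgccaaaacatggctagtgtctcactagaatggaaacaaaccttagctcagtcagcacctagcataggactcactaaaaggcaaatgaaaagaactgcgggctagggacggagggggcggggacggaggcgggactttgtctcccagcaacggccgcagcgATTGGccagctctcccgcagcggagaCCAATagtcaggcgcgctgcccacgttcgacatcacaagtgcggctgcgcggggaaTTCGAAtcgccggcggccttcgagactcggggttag
Cdca8: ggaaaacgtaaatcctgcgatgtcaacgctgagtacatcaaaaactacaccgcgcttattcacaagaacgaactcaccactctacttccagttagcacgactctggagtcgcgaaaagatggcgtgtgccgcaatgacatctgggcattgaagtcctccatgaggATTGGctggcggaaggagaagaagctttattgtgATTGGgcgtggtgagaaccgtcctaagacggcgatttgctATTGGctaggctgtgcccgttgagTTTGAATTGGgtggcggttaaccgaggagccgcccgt
Cenpa: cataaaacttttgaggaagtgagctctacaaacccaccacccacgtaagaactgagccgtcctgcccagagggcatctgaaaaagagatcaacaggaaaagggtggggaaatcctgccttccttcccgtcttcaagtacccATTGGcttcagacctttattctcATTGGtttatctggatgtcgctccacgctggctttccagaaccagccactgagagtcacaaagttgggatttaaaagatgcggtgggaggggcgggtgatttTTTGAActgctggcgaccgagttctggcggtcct
Ndc80: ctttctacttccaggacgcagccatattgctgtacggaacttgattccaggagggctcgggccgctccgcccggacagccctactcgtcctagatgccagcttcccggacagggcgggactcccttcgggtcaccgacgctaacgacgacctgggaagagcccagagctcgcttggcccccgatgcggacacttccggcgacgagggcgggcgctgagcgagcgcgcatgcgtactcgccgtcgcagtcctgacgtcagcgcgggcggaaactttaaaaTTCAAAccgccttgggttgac
In these 4 windows the CHR begins downstream of the start site, at base 15 in Bub1, 14 in Cdca8, 17 in Cenpa and 30 in Ndc80. The fifth gene, Sgo2a, has a window at each of 2 start sites, and neither holds a CHR match. The window of Sgo2a at chr1:57995724-57996023 (plus strand) is printed for contrast and holds only a CCAAT box.
Sgo2a: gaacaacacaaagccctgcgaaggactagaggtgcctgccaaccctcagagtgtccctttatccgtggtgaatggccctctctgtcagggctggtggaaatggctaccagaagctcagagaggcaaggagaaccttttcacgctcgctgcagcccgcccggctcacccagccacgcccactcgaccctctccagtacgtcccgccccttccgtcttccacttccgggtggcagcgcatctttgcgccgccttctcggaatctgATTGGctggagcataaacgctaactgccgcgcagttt

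The libraries were alike in total FPKM with 1 exception. DMSO hypoxia replicate 1 summed to 633597 FPKM, against 530452 to 557779 in the other 11, and its mean Spearman correlation with its own group was 0.926. Its deviation from replicates 2 and 3 ran with transcript length across 12003 genes, with a Spearman rho of -0.478 on the longest annotated transcript and -0.401 on the median protein-coding transcript. Over the 44 genes rho was -0.347 on the first length and -0.206 on the second. Against replicates 2 and 3 the median log2 deviation was 0.30 in the 14 genes with the shortest transcripts, 0.19 in the middle 16 and 0.08 in the 14 with the longest. The 14 longest were spread widely. Cenpf was at -1.77, Nsl1 at -1.36, Knl1 at -1.15 and Cenpe at -0.70, in the direction of that order. Against it, Cenpw was at 0.80, Cenpa at 0.69, Cenpl at 0.45 and Mad2l1 at 0.35. Cenpu, of the middle 16, was the lowest of all at -2.08. Calls over the 44 genes are given with and without this library, and statements that a gene passed in no contrast are for the fit with all libraries unless said otherwise. Of 7 spermatogonial markers read, 2 (Uchl1 and Gfra1) averaged at least 1 FPKM, Ddx4 and Kit did not exceed 0.06 and 0.04 FPKM in any library, and of 4 spermatocyte and spermatid markers, 0 did. Fibroblast and peritubular markers reached 1 FPKM in 7 of 8, and their summed level was 2052 to 2108 FPKM in MLN4924 hypoxia, 1656 to 1684 in MLN4924 normoxia, 2545 to 2650 in DMSO hypoxia and 1971 to 1980 in DMSO normoxia. Sertoli markers averaged at least 1 FPKM in 4 of 7, Leydig markers in 2 of 5 and macrophage markers in 1 of 4. Sertoli sums ran between 33.5 and 49.6 FPKM. Leydig sums were 25.8 to 30.1 FPKM in MLN4924 hypoxia and 20.8 to 25.0 in MLN4924 normoxia. In DMSO they were 26.4 to 30.8 in hypoxia and 35.5 to 37.7 in normoxia. Macrophage sums were 3.65 to 4.18 FPKM in MLN4924 hypoxia and 1.58 to 2.28 over the other groups. The fibroblast, Leydig and macrophage sums moved with the groups, and their part in the results was not tested.

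**Figure D1:**
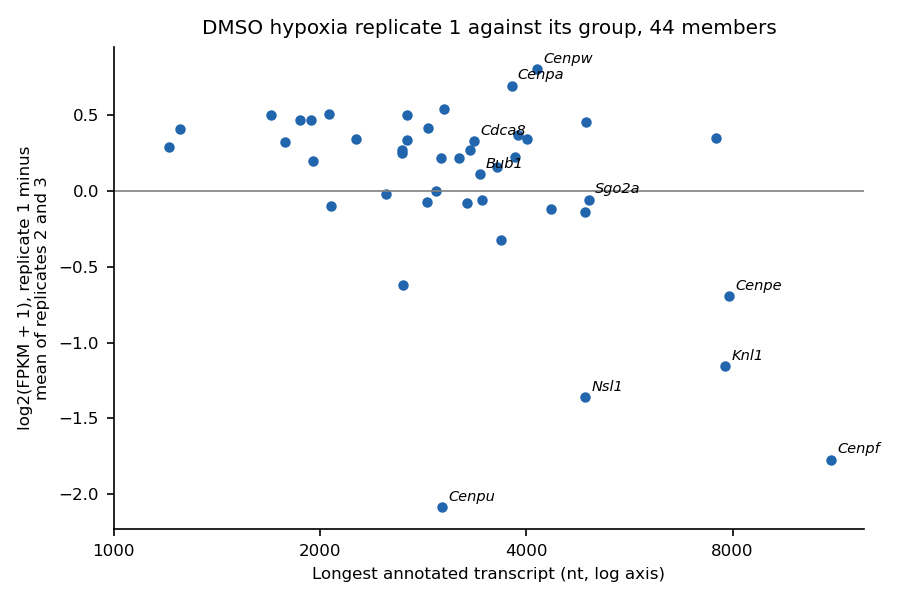
Each point is 1 of the 44 genes; the y axis is log2(FPKM + 1) in DMSO hypoxia replicate 1 minus the mean of replicates 2 and 3, and the x axis is the longest annotated transcript in nt on a log axis. Cenpu, Cenpf, Nsl1, Knl1 and Cenpe lie lowest, at -2.08, -1.77, -1.36, -1.15 and -0.70, and Cenpw and Cenpa highest, at 0.80 and 0.69.

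All 44 genes were expressed. Mean levels over the 12 libraries ran between 3.15 FPKM for Cenpo, an inner kinetochore subunit, and 69.8 FPKM for Bub3, a checkpoint adaptor, with a median of 19.1 FPKM, against 9.02 FPKM over all tested genes. In 40 of them every library was at or above 5 FPKM. The DMSO hypoxia mean was the highest of the 4 in 20 genes, and the DMSO normoxia mean was the lowest in 24.

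**Figure D2:**
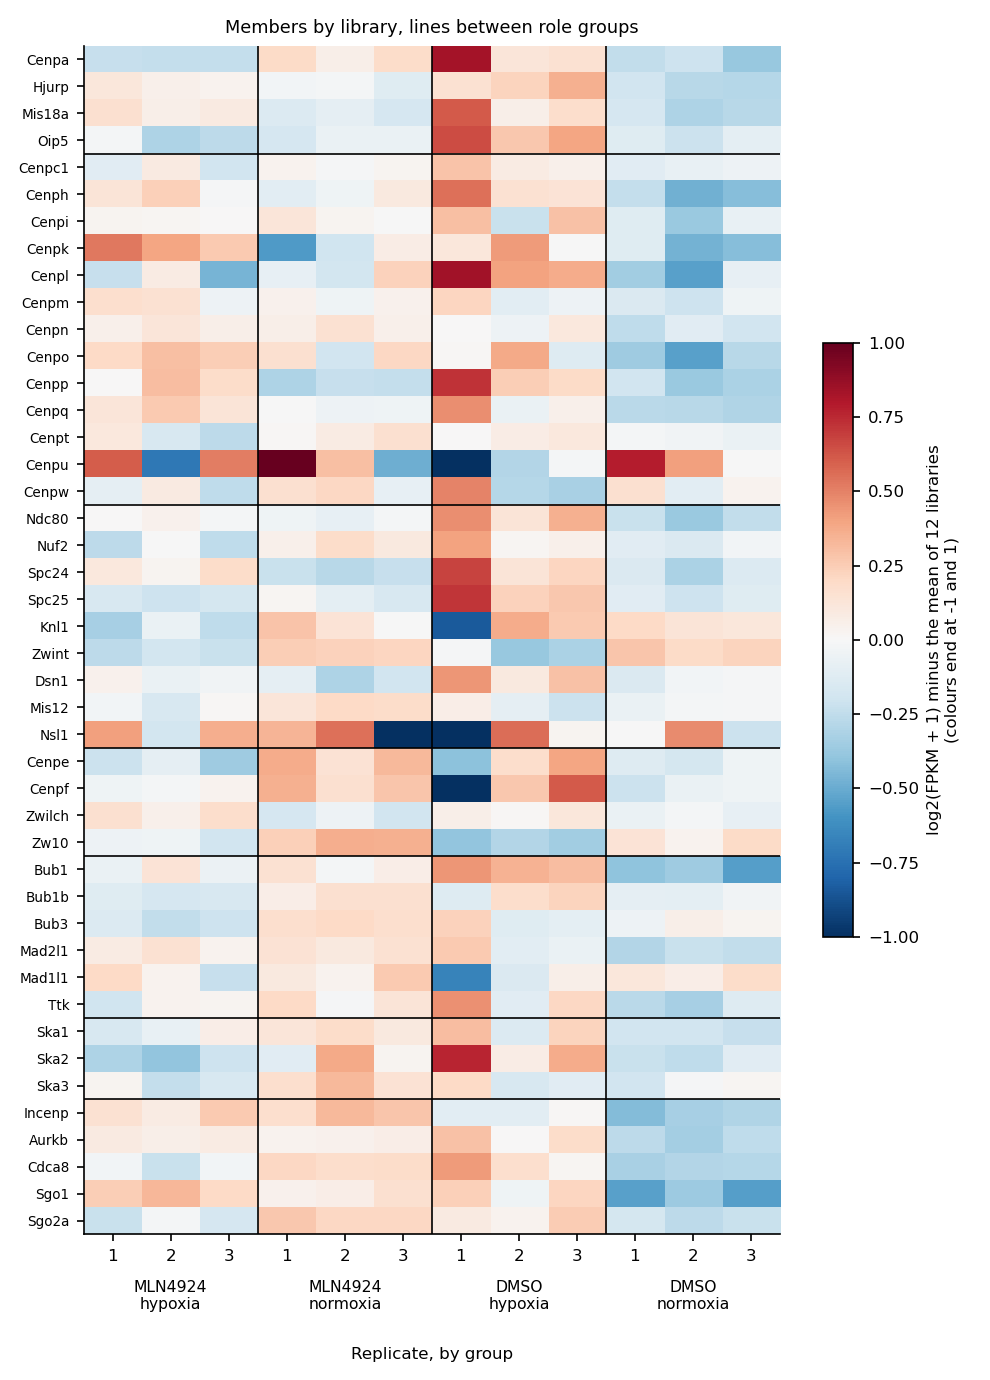
Rows are the 44 genes grouped by role and columns are the 12 libraries by group; colour is log2(FPKM + 1) minus that gene's mean over the 12 libraries, with colours ending at -1 and 1. DMSO normoxia is pale to blue in most rows, and DMSO hypoxia replicate 1 holds the most extreme values.

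In DMSO, hypoxia raised 25 of the 44 genes and lowered 2 (limma on log2(FPKM + 1), adjusted p under 0.05 over all tested genes); among all tested genes 13.8% were called higher and 19.4% lower, 33.2% in all. The median log2 fold change of the 44 was 0.32, against -0.08 over all tested genes. Above 0 lay 34 of them, against 42.2% of all tested genes. The 3 hypoxia libraries lay wholly above the 3 normoxia libraries in 29 genes and wholly below them in 4, against 18.3% and 26.9% of all tested genes. With 3 libraries on each side, the smallest p of an exact permutation test is 0.1, so the tests rest on limma. It shares the spread across genes and pools it over the 4 groups, so this comparison also draws on the spread of the MLN4924 groups. Fitted with only the groups of the contrast, 13 genes were called higher and 2 lower, against 7.67% and 10.4% of all tested genes. The median over the 44 genes against the normoxia mean was 0.46, 0.25 and 0.35 in hypoxia replicates 1, 2 and 3. Without replicate 1 the counts were 26 higher and 3 lower (14.8% and 23.9% of all tested genes), and 23 of the 25 were kept, with Ttk and Ska1 lost.

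With MLN4924 present, hypoxia raised 3 of the 44 genes (Cenpk, Cenpp and Zwilch) and lowered 8; among all tested genes 11.7% were called higher and 16.5% lower, 28.2% in all. The median log2 fold change was -0.10, against -0.05 over all tested genes. Of the 44, 29 lay below 0, against 55.6% of all tested genes. The 3 hypoxia libraries lay wholly above normoxia in 9 genes and wholly below in 15, against 22.6% and 30.7% of all tested genes. The split of 3 higher to 8 lower depended on scaling. It was 4 to 4 with median-of-ratios scaling (14.0% and 13.7% of all tested genes). After rescaling to TPM it was 6 to 9 (11.9% and 13.9%). Without DMSO hypoxia replicate 1, which enters the shared spread, it was 6 to 14 (17.9% and 24.7% of all tested genes). Of the 25 genes raised in DMSO, 21 were not called with MLN4924, Cenpk and Cenpp were raised there too, and Cdca8 and Sgo2a were lowered.

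The difference between the 2 hypoxia effects, MLN4924 minus DMSO, was tested as an interaction. It passed in 5 genes, all lower (Bub1, Sgo2a, Cdca8, Ndc80 and Cenpa), and in 0 higher, against 0.926% and 0.958% of all tested genes, 1.88% in all. At an unadjusted p under 0.05 there were 24 lower and 0 higher, against 6.92% and 7.68% of all tested genes. The median interaction was -0.34, against 0.02 over all tested genes, and it lay below 0 in 37 of 44 genes, against 47.1% of all tested genes. A called change of sign, lower with MLN4924 and higher in DMSO, was seen in Cdca8 and Sgo2a, 2 of 44, against 0.187% of all tested genes (0.309% for opposite calls in either order). By sign alone 20 of 44 followed that pattern, against 11.7%. Without DMSO hypoxia replicate 1, 15 genes passed the interaction, all lower, against 2.21% of all tested genes lower and 3.30% higher in that fit. They were those 5 with Hjurp, Oip5, Spc25, Cenpe, Cenpf, Bub1b, Bub3, Ska2, Incenp and Aurkb. In the same fit 7 genes changed sign by call (Cenpa, Cenpe, Cenpf, Bub1b, Ska2, Cdca8 and Sgo2a), against 0.349% of all tested genes.

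**Figure D3:**
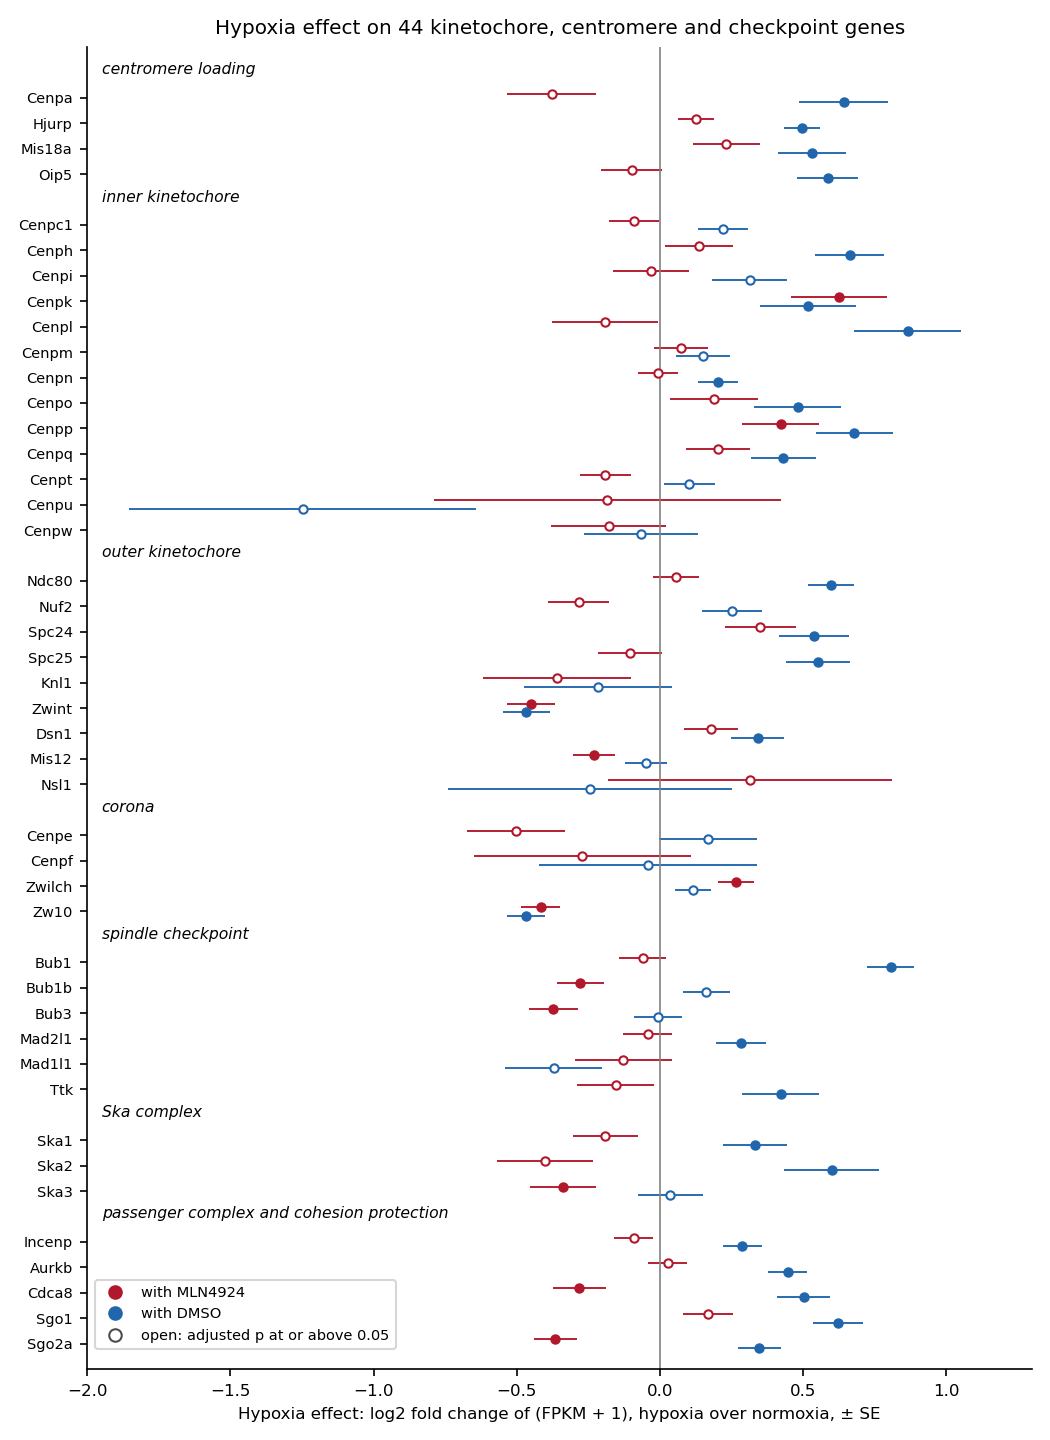
Hypoxia effect of each of the 44 genes by role, with the log2 fold change of (FPKM + 1), hypoxia over normoxia, on the x axis; red points are with MLN4924, blue points with DMSO, bars are the SE, and open points did not reach an adjusted p under 0.05. Sgo2a (-0.36 with MLN4924, 0.35 in DMSO) and Cdca8 (-0.28 and 0.50) have filled points on both sides of 0.

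Among the centromere loading genes hypoxia raised 4 of 4 in DMSO, and 0 of 4 were called with MLN4924. For this and the role groups below, hypoxia in DMSO raised 13.8% and lowered 19.4% of all tested genes. With MLN4924 the shares were 11.7% and 16.5%. Cenpa encodes the centromeric histone itself. It had 43.4, 43.2 and 43.3 FPKM in MLN4924 hypoxia, 58.4, 53.4 and 58.2 in MLN4924 normoxia, 91.6, 55.5 and 57.0 in DMSO hypoxia, and 42.9, 44.3 and 39.1 in DMSO normoxia. Hypoxia libraries lay below normoxia with MLN4924 and above it in DMSO, where replicate 1 stood far above the others. The log2 fold change of hypoxia was -0.38 ± 0.15 (SE) with MLN4924 (limma adjusted p = 0.0965) and 0.64 ± 0.15 in DMSO (adjusted p = 0.0097), and their difference was -1.02 ± 0.22 (adjusted p = 0.0467). Without DMSO hypoxia replicate 1 the values were -0.38 (adjusted p = 0.000287), 0.41 (adjusted p = 0.000377) and -0.79 (adjusted p = 0.000736). The interaction of Cenpa was called in 3 of the 12 fits that left out a library.

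Oip5, part of the MIS18 complex that licenses CENP-A loading, had 13.9, 11.2 and 11.5 FPKM in MLN4924 hypoxia, 12.4, 13.4 and 13.4 in MLN4924 normoxia, 22.7, 17.2 and 18.9 in DMSO hypoxia, and 12.84, 12.01 and 13.06 in DMSO normoxia. The DMSO hypoxia libraries alone stood apart, above all 9 others. Oip5 was 0.59 ± 0.11 higher by hypoxia in DMSO (limma adjusted p = 0.0021), and under hypoxia it was 0.64 ± 0.11 lower in log2 with MLN4924 than with DMSO (adjusted p = 0.00172). Hjurp, the CENP-A chaperone, rose by 0.50 ± 0.06 with hypoxia in DMSO (adjusted p = 0.00021), and Mis18a, Oip5's partner, by 0.53 ± 0.12 (adjusted p = 0.00643). These rises were 0.54 and 0.37 with DMSO hypoxia replicate 1 left out, and that of Oip5 was 0.48. Without DMSO hypoxia replicate 1 the interaction passed in Oip5 (-0.58, adjusted p = 0.0254) and in Hjurp (-0.42, adjusted p = 0.0113), against adjusted p = 0.0528 and 0.072 with it, and Mis18a was called higher by hypoxia with MLN4924 (0.23, adjusted p = 0.00517).

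Among the 13 inner kinetochore genes hypoxia raised 7 in DMSO and 2 with MLN4924, and lowered 0 in either. Cenpk, the most abundant of them, had 50.6, 45.9 and 41.9 FPKM in MLN4924 hypoxia, 23.1, 30.2 and 36.6 in MLN4924 normoxia, 37.6, 46.9 and 34.7 in DMSO hypoxia, and 31.8, 24.8 and 25.6 in DMSO normoxia. Hypoxia libraries lay above normoxia libraries in both treatments, with log2 fold changes of 0.63 ± 0.17 with MLN4924 (limma adjusted p = 0.0185) and 0.52 ± 0.17 in DMSO (adjusted p = 0.0375). The difference between them was 0.11 ± 0.24 and did not pass (adjusted p = 0.856). Cenpp, a subunit of the CENP-O complex, was also higher in hypoxia in both, at 0.42 ± 0.13 with MLN4924 (adjusted p = 0.0385) and 0.68 ± 0.13 in DMSO (adjusted p = 0.00331). Its call with MLN4924 was made in 5 of the 12 fits that left out a library, and those of Cenpk in 9 with MLN4924 and 7 in DMSO. The rise of Cenpp in DMSO was 0.51 without DMSO hypoxia replicate 1.

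Cenpl, which binds the CENP-A nucleosome through its partner CENP-N, had 6.87, 8.82 and 5.72 FPKM in MLN4924 hypoxia, 7.76, 7.14 and 9.85 in MLN4924 normoxia, 15.58, 11.24 and 10.99 in DMSO hypoxia, and 6.28, 5.34 and 7.72 in DMSO normoxia. DMSO hypoxia was again the group above all others. Its rise by hypoxia in DMSO, 0.87 ± 0.19, was the most positive log2 change among the 44 (limma adjusted p = 0.00541), and MLN4924 under hypoxia lowered it by 0.74 ± 0.19 (adjusted p = 0.0153). The interaction of -1.06 ± 0.26 did not pass (adjusted p = 0.0836). With DMSO hypoxia replicate 1 left out, the rise of Cenpl was 0.71, below the 0.77 of Bub1, and its fall was 0.59. Cenpu ranged between 2.29 and 33.1 FPKM over the libraries, and its SE of 0.61 was the widest of the group. The other genes raised by hypoxia in DMSO were Cenph (0.66 ± 0.12, adjusted p = 0.00197), Cenpo (0.48 ± 0.15, adjusted p = 0.0345), Cenpq (0.43 ± 0.11, adjusted p = 0.0143) and Cenpn (0.20 ± 0.07, adjusted p = 0.0469), subunits of the same network. The Cenpn call was made in 2 of the 12 fits without a library and the Cenpo call in 8, and Cenpq was at 0.27 without DMSO hypoxia replicate 1 (adjusted p = 0.00325). Without that library Cenpq was also called higher by hypoxia with MLN4924 (0.20, adjusted p = 0.00823). Cenpn was also raised by MLN4924 in normoxia (0.27 ± 0.07, adjusted p = 0.0213), a call made in 8 of the 12 fits. Cenpc1, the scaffold that reaches to the outer layer, Cenpi, Cenpm, Cenpt, Cenpu and Cenpw passed in none of the 5 contrasts.

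The 9 outer kinetochore genes divided. Hypoxia in DMSO raised 4 (Ndc80, Spc24, Spc25 and Dsn1) and lowered Zwint, and with MLN4924 it lowered Zwint and Mis12 and raised 0. MLN4924 under hypoxia lowered 4 (Ndc80, Nuf2, Spc25 and Dsn1), against 13.3% of all tested genes. Of the 12 fits that left out a library, 3 each kept Nuf2 and Dsn1, 10 kept Ndc80 and 12 kept Spc25. Ndc80, the microtubule-binding subunit, had 37.5, 38.5 and 36.8 FPKM in MLN4924 hypoxia, 36.2, 35.3 and 36.9 in MLN4924 normoxia, 51.9, 41.0 and 48.0 in DMSO hypoxia, and 31.8, 28.6 and 31.3 in DMSO normoxia. The MLN4924 groups overlapped, and DMSO hypoxia lay above DMSO normoxia. Hypoxia changed Ndc80 by 0.06 ± 0.08 with MLN4924 (limma adjusted p = 0.653) and by 0.60 ± 0.08 in DMSO (adjusted p = 0.000312), a difference of -0.54 ± 0.11 (adjusted p = 0.0407). That interaction was called in 2 of the 12 fits that left out a library. The other subunits of the NDC80 complex were at 0.54 ± 0.12 (Spc24, adjusted p = 0.00733), 0.55 ± 0.11 (Spc25, adjusted p = 0.00382) and 0.25 ± 0.11 (Nuf2, adjusted p = 0.0911) for hypoxia in DMSO. With MLN4924 they were at 0.35 ± 0.12 (Spc24, adjusted p = 0.0555), -0.10 ± 0.11 (Spc25, adjusted p = 0.544) and -0.28 ± 0.11 (Nuf2, adjusted p = 0.0704). In the MIS12 complex, Dsn1 rose in DMSO (0.34 ± 0.09, adjusted p = 0.0187), Mis12 was lower with MLN4924 (-0.23 ± 0.07, adjusted p = 0.0421; a call made in 2 of the 12 fits without a library), and Nsl1 passed in no contrast, nor did Knl1, the checkpoint scaffold. Leaving out DMSO hypoxia replicate 1, hypoxia with MLN4924 was called in Spc24 (0.35, adjusted p = 0.00117), Nuf2 (-0.28, adjusted p = 0.00939) and Knl1 (-0.36, adjusted p = 0.013), and Spc25 passed the interaction (-0.50, adjusted p = 0.00463, against 0.0747 with it). In that fit Ndc80, Spc24, Spc25 and Dsn1 were still called higher by hypoxia in DMSO, at 0.52, 0.37, 0.40 and 0.26.

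Zwint, which helps hold the corona on KNL1, had 44.8, 47.2 and 46.0 FPKM in MLN4924 hypoxia, 63.8, 63.1 and 62.6 in MLN4924 normoxia, 53.2, 41.0 and 43.0 in DMSO hypoxia, and 65.4, 61.4 and 62.7 in DMSO normoxia. Hypoxia libraries lay below normoxia in both treatments. Its log2 fold changes were -0.45 ± 0.08 with MLN4924 (limma adjusted p = 0.00259) and -0.47 ± 0.08 in DMSO (adjusted p = 0.00177), and both were called in 12 of 12 fits without a library. Zw10, a corona protein that recruits dynein, was also lower in both, with 21.2, 21.3 and 19.2 FPKM in MLN4924 hypoxia, 26.2, 28.6 and 28.5 in MLN4924 normoxia, 16.5, 17.7 and 17.0 in DMSO hypoxia, and 24.3, 22.5 and 25.3 in DMSO normoxia. It changed by -0.42 ± 0.07 with MLN4924 (adjusted p = 0.00126) and by -0.47 ± 0.07 in DMSO (adjusted p = 0.00051). Zwilch, its partner, rose by 0.27 ± 0.06 with MLN4924 (adjusted p = 0.0101) and was at 0.12 ± 0.06 in DMSO (adjusted p = 0.18).

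The long corona genes Cenpe, a kinesin, and Cenpf depended on DMSO hypoxia replicate 1. Cenpf had 13.9, 14.2 and 14.8 FPKM in MLN4924 hypoxia, 18.7, 16.2 and 17.6 in MLN4924 normoxia, 5.12, 17.5 and 22.6 in DMSO hypoxia, and 12.2, 13.7 and 14.0 in DMSO normoxia. Hypoxia in DMSO gave -0.04 ± 0.38 with all libraries (limma adjusted p = 0.943) and 0.55 without replicate 1 (adjusted p = 0.00238). For Cenpe the values were 0.17 ± 0.17 (adjusted p = 0.472) and 0.40 (adjusted p = 0.0103). Without that library hypoxia with MLN4924 was also called, in Cenpe at -0.50 (adjusted p = 0.00147) and in Cenpf at -0.27 (adjusted p = 0.04). Both then passed the interaction, Cenpe at -0.90 (adjusted p = 0.00461) and Cenpf at -0.82 (adjusted p = 0.00926).

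Of the 6 spindle checkpoint genes hypoxia raised 3 in DMSO (Bub1, Mad2l1 and Ttk) and lowered 2 with MLN4924 (Bub1b and Bub3). Bub1, the kinase that recruits other checkpoint proteins, had 17.2, 19.9 and 17.3 FPKM in MLN4924 hypoxia, 20.2, 17.7 and 18.9 in MLN4924 normoxia, 24.9, 23.3 and 22.6 in DMSO hypoxia, and 13.42, 13.83 and 11.97 in DMSO normoxia. The MLN4924 groups overlapped and lay between DMSO hypoxia, above them, and DMSO normoxia, below them. Hypoxia changed Bub1 by -0.06 ± 0.08 with MLN4924 (limma adjusted p = 0.636) and by 0.81 ± 0.08 in DMSO (adjusted p = 5.3e-05), and the difference, -0.87 ± 0.12 (adjusted p = 0.0062), was called in 12 of 12 fits without a library. MLN4924 raised Bub1 in normoxia by 0.50 ± 0.08 (adjusted p = 0.00178) and under hypoxia lowered it by 0.36 ± 0.08 (adjusted p = 0.00892).

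Bub3 had 63.2, 58.5 and 60.0 FPKM in MLN4924 hypoxia, 78.0, 79.9 and 77.9 in MLN4924 normoxia, 81.8, 63.9 and 64.7 in DMSO hypoxia, and 67.1, 72.2 and 70.9 in DMSO normoxia. With MLN4924 the hypoxia libraries lay below normoxia, and in DMSO the groups overlapped. Its change was -0.37 ± 0.09 with MLN4924 (limma adjusted p = 0.00856) and -0.01 ± 0.09 in DMSO (adjusted p = 0.958), and the difference did not pass (adjusted p = 0.189). With DMSO hypoxia replicate 1 left out Bub3 was at -0.12 in DMSO (adjusted p = 0.0488) and the difference, -0.25, passed (adjusted p = 0.0367). Bub1b, which encodes BUBR1, an inhibitor of the anaphase-promoting complex, was at -0.28 ± 0.08 with MLN4924 (adjusted p = 0.0292) and 0.16 ± 0.08 in DMSO (adjusted p = 0.157), and without that library it was at 0.27 in DMSO (adjusted p = 0.000874) with an interaction of -0.55 (adjusted p = 0.00102). The fall of Bub1b with MLN4924 was called in 7 of the 12 fits without a library. Mad2l1, its partner in that inhibition, rose in DMSO by 0.28 ± 0.09 (adjusted p = 0.0291), and Ttk, the kinase that starts the signal, by 0.42 ± 0.13 (adjusted p = 0.0349). Without that library the rises were 0.17 for Mad2l1 (adjusted p = 0.0124) and 0.29 for Ttk, which did not pass (adjusted p = 0.0788). Mad1l1, which holds MAD2 at kinetochores, passed in no contrast.

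In the Ska complex, which couples kinetochores to depolymerising microtubules, Ska2 had 11.99, 11.19 and 12.92 FPKM in MLN4924 hypoxia, 13.9, 19.9 and 15.4 in MLN4924 normoxia, 26.2, 15.9 and 19.8 in DMSO hypoxia, and 12.7, 12.5 and 13.8 in DMSO normoxia. DMSO hypoxia lay above DMSO normoxia and MLN4924 hypoxia lay below MLN4924 normoxia. Hypoxia raised Ska2 in DMSO by 0.60 ± 0.17 (limma adjusted p = 0.0194), the value with MLN4924 was -0.40 ± 0.17 (adjusted p = 0.101), and the interaction did not pass (adjusted p = 0.0688). Once DMSO hypoxia replicate 1 was left out the fall with MLN4924 was called (-0.40, adjusted p = 0.0266) and the interaction of -0.82 passed (adjusted p = 0.0361). The rise of Ska2 in DMSO was then 0.42 (adjusted p = 0.0384). Ska1 rose by 0.33 ± 0.11 in DMSO (adjusted p = 0.0432), and Ska3 fell with MLN4924, at -0.34 ± 0.11 (adjusted p = 0.0492), each a call made in few of the 12 fits without a library (2 for Ska1 and 3 for Ska3).

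The passenger complex and shugoshins were raised as a group by hypoxia in DMSO and by MLN4924 in normoxia, 5 of 5 in each, comparisons that share the DMSO normoxia libraries. Of all tested genes 13.8% and 9.33% were called higher in these comparisons. Sgo2a, the shugoshin that shields centromeric cohesin in meiosis, had 13.76, 15.95 and 14.27 FPKM in MLN4924 hypoxia, 19.7, 18.8 and 18.9 in MLN4924 normoxia, 17.3, 16.7 and 19.5 in DMSO hypoxia, and 14.2, 13.4 and 13.7 in DMSO normoxia. Hypoxia libraries lay below normoxia with MLN4924 and above it in DMSO. The log2 fold changes were -0.36 ± 0.08 (limma adjusted p = 0.00499) and 0.35 ± 0.08 (adjusted p = 0.00559), and the interaction was -0.71 ± 0.11 (adjusted p = 0.00996). All 3 calls were made in 12 of 12 fits without a library.

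Cdca8, which encodes the passenger subunit borealin, had 64.9, 56.5 and 65.0 FPKM in MLN4924 hypoxia, 76.7, 74.8 and 75.1 in MLN4924 normoxia, 89.0, 74.5 and 67.1 in DMSO hypoxia, and 52.8, 53.9 and 54.2 in DMSO normoxia. It showed the same opposite order as Sgo2a, with groups that did not overlap in either treatment. Its hypoxia changes were -0.28 ± 0.09 with MLN4924 (limma adjusted p = 0.0442) and 0.50 ± 0.09 in DMSO (adjusted p = 0.00222), with an interaction of -0.78 ± 0.13 (adjusted p = 0.0155). The fall with MLN4924 was called in 2 of 12 fits without a library and the interaction in 9.

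Incenp, the scaffold of the complex, had 50.3, 48.0 and 54.6 FPKM in MLN4924 hypoxia, 50.9, 56.8 and 55.2 in MLN4924 normoxia, 41.9, 42.0 and 45.7 in DMSO hypoxia, and 33.3, 35.7 and 36.5 in DMSO normoxia. MLN4924 libraries lay above DMSO libraries in both oxygen conditions, by 0.23 ± 0.07 in hypoxia (limma adjusted p = 0.0309) and 0.61 ± 0.07 in normoxia (adjusted p = 0.000168). Sgo1, the mitotic shugoshin, averaged 26.2 ± 1.27 FPKM in MLN4924 hypoxia, 23.2 ± 1.06 in MLN4924 normoxia, 24.0 ± 2.62 in DMSO hypoxia and 15.2 ± 1.21 in DMSO normoxia (SD, n = 3), and MLN4924 in normoxia raised it by 0.58 ± 0.09 (adjusted p = 0.00108). Aurkb, the Aurora B kinase, was at 0.03 ± 0.07 for hypoxia with MLN4924 (adjusted p = 0.812) and 0.45 ± 0.07 in DMSO (adjusted p = 0.000655), and its interaction of -0.42 ± 0.09 did not pass (adjusted p = 0.0584). The interaction passed without DMSO hypoxia replicate 1 in Aurkb (-0.35, adjusted p = 0.0188) and in Incenp (-0.40, adjusted p = 0.04, against 0.0889 with it), and in Aurkb also once each library's trend on the longest transcript was removed (adjusted p = 0.0192).

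**Figure D4:**
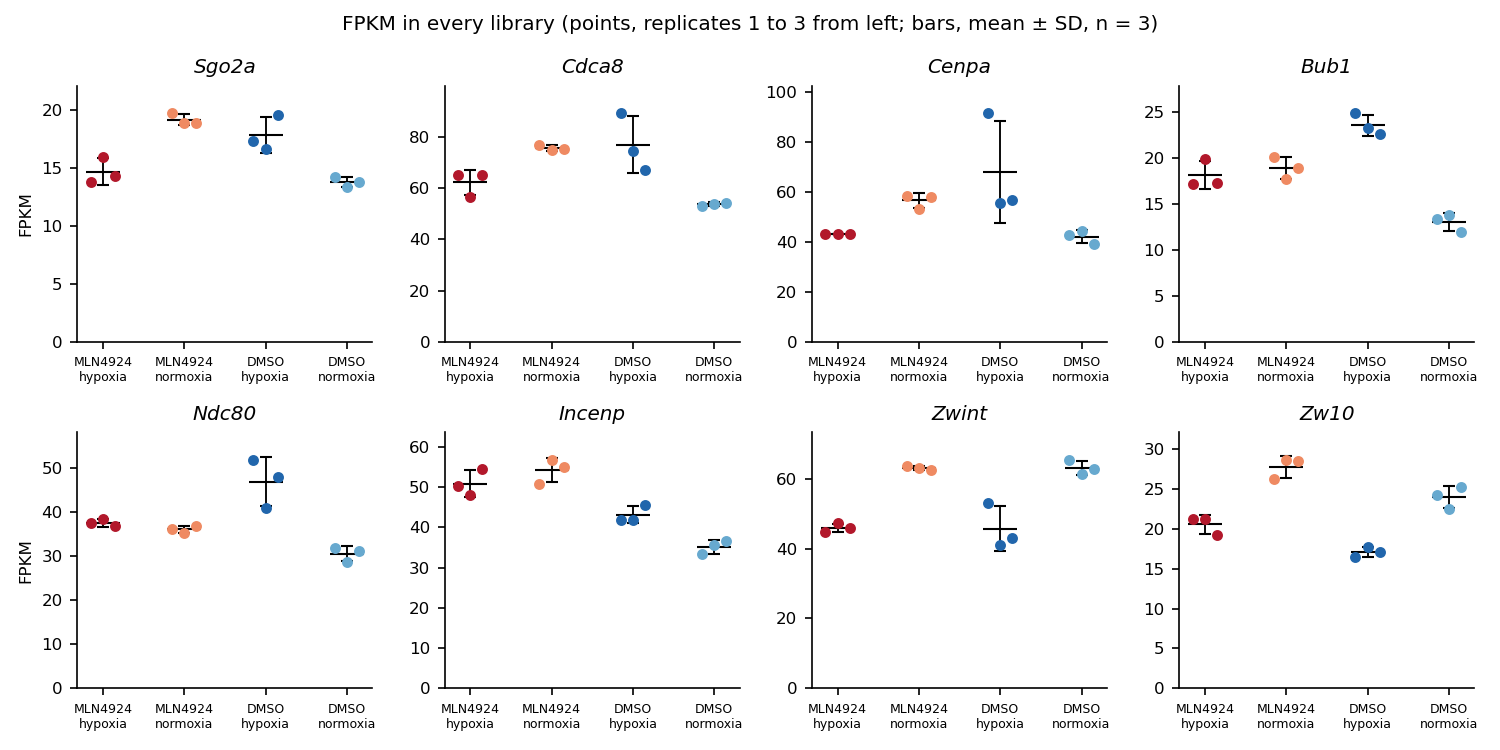
FPKM of 8 genes in every library (points) with the mean and SD of each group (bars, n = 3). In Sgo2a and Cdca8 hypoxia lies below normoxia with MLN4924 and above it in DMSO, while Zwint and Zw10 are lower in hypoxia under both treatments.

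MLN4924 on its own, against DMSO in normoxia, raised 8 of the 44 genes and lowered 0 (limma), against 9.33% and 10.7% of all tested genes, 20.0% in all. At an unadjusted p under 0.05 there were 21 higher and 0 lower, against 14.7% and 17.6%. The median was 0.20, against -0.03 over all tested genes, and 37 lay above 0, against 46.0% of all tested genes. Libraries did not overlap in 29 genes, all higher, against 22.2% higher and 26.2% lower among all tested genes. The 8 were Incenp, Sgo1, Bub1, Cdca8, Sgo2a, Mad2l1, Aurkb and Cenpn. Without DMSO hypoxia replicate 1, a library outside this comparison that enters the shared spread, 24 were called higher and 0 lower, against 16.04% and 18.2% of all tested genes in that fit. Under hypoxia MLN4924 lowered 11 and raised 2 (Incenp and Zw10), against 13.3% and 12.2% of all tested genes, 25.5% in all, with groups wholly lower in 13 and wholly higher in 2, against 19.9% and 18.1%. The median was -0.17, against -0.01. Fitted with only the groups of the contrast, 2 were lower and 0 higher, against 5.22% and 5.04% of all tested genes. Without DMSO hypoxia replicate 1, 13 were lower and 5 higher (Mad2l1, Zwint and Cenpq added), against 15.7% and 16.8% of all tested genes, and the median was -0.08. Of the 11 lower genes 8 were kept, with Nuf2, Dsn1 and Cdca8 lost. The Cdca8 call was made in 1 of the 12 fits that left out a library.

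A CHR match lay in 21 of the 43 promoter windows (48.8%), against 19.2% of 32851 windows in the table, and CCAAT in 30 (69.8%), against 37.4%. An E2F site, searched as TTTGGCGC or TTTCGCGC, lay in 1 (2.33%), against 0.813%. The 20 genes with a CHR anywhere in a window had a median hypoxia change of 0.46 in DMSO and a median interaction of -0.41, and the 18 without had 0.30 and -0.29. A CHR wholly within the 50 bases after the start site, a window chosen after the positions and the interaction genes were seen, lay in 12 (27.9%), against 2.46%. Those 12 genes were Bub1, Bub1b, Cdca8, Cenpa, Cenpf, Hjurp, Knl1, Ndc80, Oip5, Sgo1, Spc25 and Ttk. Their median hypoxia change was 0.53 in DMSO and their median interaction -0.56, below 0 in 12 of 12 and called in 4. In the other 26 genes with a window the medians were 0.24 and -0.29, with 21 below 0 and 1 called. These are descriptions with no test.

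For the lists that follow, the shares of all tested genes were 11.7% higher and 16.5% lower for hypoxia with MLN4924. They were 13.8% and 19.4% for hypoxia in DMSO, and 0.958% and 0.926% for the interaction. Among 24 further kinetochore and checkpoint genes outside the 44, hypoxia with MLN4924 raised 1 and lowered 8. In these 24, hypoxia in DMSO raised 6 and lowered 3, and the interaction was lower in 7 and higher in 0. Birc5, the remaining passenger subunit survivin, averaged 134 ± 5.07 FPKM in MLN4924 hypoxia and 147 ± 6.12 in MLN4924 normoxia (SD, n = 3). It averaged 183 ± 43.7 in DMSO hypoxia and 116 ± 1.20 in DMSO normoxia. Its DMSO hypoxia libraries had 232, 150 and 166 FPKM, with replicate 1 the highest. Of 18 other mitotic genes, hypoxia with MLN4924 raised 1 and lowered 5, and hypoxia in DMSO raised 13 and lowered 0. The interaction was lower in 8 of them and higher in 0. Of 20 cohesin and condensin genes, hypoxia with MLN4924 raised 1 and lowered 0, and hypoxia in DMSO raised 5 and lowered 0. Their interaction was lower in 1 and higher in 0, with a median of -0.14. Of 20 DNA replication genes, hypoxia with MLN4924 raised 10 and lowered 0, hypoxia in DMSO raised 3 and lowered 2, and the interaction was higher in 3 and lower in 0, with a median of 0.09. Cdkn1a, which encodes the cyclin-dependent kinase inhibitor p21, rose with hypoxia in both treatments. Its log2 fold change was 2.03 ± 0.06 with MLN4924 and 3.18 ± 0.06 in DMSO. The interaction was -1.15 ± 0.09 (limma adjusted p = 0.000852). Cdkn1a stood in a list of 13 genes of p21 and the MuvB complexes. In these 13, hypoxia with MLN4924 raised 2 and lowered 1, and hypoxia in DMSO raised 2 and lowered 0. The interaction was lower in 1, Cdkn1a, and higher in 0, with a median of -0.06.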

How the data were processed

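RNA of 12 GC-2 libraries was sequenced with paired reads of 150 nt. The authors deposited FPKM values, rounded to 2 decimals, 1 column a library; fastp, STAR, RSEM 1.3.3 and build mm39 stand in the submitters' processing notes, with no role or order, and the annotation and strandedness are not given in the sources used here. FPKM carries no counts, so depth is unknown and no counting interval is given. Every column was used (0 left out).

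The 12311 genes that reached 1 FPKM in 3 or more libraries were fitted as log2(FPKM + 1) with limma 3.58.1 in R 4.3.3, with 4 group means, a shared spread and an intensity trend. Tests are two-sided, adjusted by Benjamini-Hochberg over all tested genes within each of 5 contrasts, at 0.05. Fold changes are on the FPKM + 1 scale. The fit was tested on simulated data in which each gene had the same spread in every library. These data held no outlying library, so that test does not cover DMSO hypoxia replicate 1. The members, lists and the rule for named genes (the 3 most changed in each direction and contrast, genes with opposite calls, and the most abundant of each role group) were chosen with earlier results of these data known. Ndc80, Cenpf, Hjurp and other genes given with fewer values were named after their values were seen. Transcript lengths came from GENCODE M21 by symbol. The longest transcript was used first; the median protein-coding transcript was tried after its results were seen, and both are reported.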

Additional observations from a re-analysis of the deposited data

Results flagged for a closer look

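In 5 genes the test of the difference between the hypoxia effects passed (limma interaction, MLN4924 minus DMSO, log2). The values were -1.02 for Cenpa, -0.87 for Bub1, -0.78 for Cdca8, -0.71 for Sgo2a and -0.54 for Ndc80. In all 5 the hypoxia effect was lower with MLN4924 than in DMSO. Of the 12 fits without a library, 12 kept Bub1 and Sgo2a, 9 Cdca8, 3 Cenpa and 2 Ndc80. With 3 libraries a group, no gap test for an outlying value was run on single genes; DMSO hypoxia replicate 1 stood apart as a whole library, in its total and in its trend with length.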

How the results depend on the processing

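Counts of called genes are given as higher and lower, and shares are of all tested genes in the same fit and direction. Hypoxia with MLN4924 (3 and 8) gave 6 higher after rescaling to TPM, against 11.9% of all tested genes. With array weights it gave 7 and 13 (18.2% and 25.2% of all tested genes). Fitted with only the groups of the contrast it gave 6 and 13 (17.0% and 23.4%). It gave 4 lower with no filter (7.14%) and 4 lower with median-of-ratios scaling (13.7%). Hypoxia in DMSO (25 and 2) gave 13 higher with only the groups of the contrast (7.67%). It gave 19 higher with no filter (6.20%) and 20 after rescaling to TPM (12.1%). It gave 27 higher with array weights (16.4%) and 28 with median-of-ratios scaling (16.9%). MLN4924 under hypoxia (2 and 11) gave 1 higher after rescaling to TPM (11.8%). With only the groups of the contrast it gave 0 and 2 (5.04% and 5.22%). MLN4924 in normoxia (8 and 0) gave 14 higher with median-of-ratios scaling (10.5%) and 23 with array weights (17.0%). It gave 23 with only the groups of the contrast (15.7%), a setting that cannot be applied to the interaction. The interaction (0 and 5) gave 3 lower with no filter (0.351%), 9 after rescaling to TPM (0.890%) and 20 with array weights (2.96%). Opposite hypoxia calls (2) numbered 1 with no filter, 1 with median-of-ratios scaling and 6 with array weights. Shares of opposite calls over all tested genes were computed only with all libraries and without DMSO hypoxia replicate 1.

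Removing each library's trend on transcript length was chosen after seeing the data and run with 2 length measures, the second after the results of the first. With the longest transcript it gave 6 higher for hypoxia with MLN4924, 16 higher for MLN4924 in normoxia and 13 lower for the interaction; with the median protein-coding transcript it gave 5, 16 and 9. The 5 interaction calls were kept under both, and opposite calls numbered 3 under each, with Sgo2a and Bub1b in both, Cenpe in the first alone and Cdca8 in the second alone.

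Leaving out 1 library gave 1 to 6 higher and 4 to 14 lower for hypoxia with MLN4924, 18 to 26 and 2 to 3 for hypoxia in DMSO, 0 to 5 and 4 to 14 for MLN4924 under hypoxia, 7 to 24 and 0 to 0 for MLN4924 in normoxia, 0 to 0 and 2 to 15 for the interaction, and 1 to 7 opposite calls. Sgo2a was among the opposite calls under every setting run. Cenpf reversed: hypoxia in DMSO (-0.04) gave 0.58 with array weights and, without 1 library, -0.42 (without DMSO hypoxia replicate 3) to 0.55 (without DMSO hypoxia replicate 1). MLN4924 under hypoxia (0.14) gave -0.48 with array weights and -0.45 (without DMSO hypoxia replicate 1) to 0.52 (without DMSO hypoxia replicate 3) in the same fits. The cause was not tested.

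Replicate numbers recur across groups, but same-numbered libraries did not deviate together (r -0.0697 to 0.0993 over 18 pairs; 4 of 12 libraries correlated best with their own number). With the replicate block, hypoxia with MLN4924 gave 5 lower (15.1% of all tested genes) and hypoxia in DMSO 21 higher (12.7%). The interaction gave 3 lower (0.617%), and opposite calls numbered 1. Depth is unknown, so no limit from depth can be given.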
